A study of Carassius auratus with 6 samples.

Results

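Goldfish (Carassius auratus) gene models named after the retinal guanylate cyclases, their calcium-dependent activators, recoverin and the cyclase partner RD3 were compared between eyes of 2 kinds. A model was included when the gene name of its best Swiss-Prot protein match was gucy2d, gucy2e, gucy2f, guca1a, guca1b, guca1c, guca1d, rcvrn or rd3, or that name followed by a, b or -like. The rule found 27 of the 56251 models in the deposited table, under 5 of the 9 names: 7 gucy2f, 11 guca1a, 4 guca1b, 1 rcvrn and 4 rd3 models. No model was named gucy2d, gucy2e, guca1c or guca1d. The names are those of best matches in other species and are not orthology assignments. Of the 27 models, 23 had a RefSeq protein accession that could be traced to a goldfish RefSeq gene. For 2 of these, the gene had a symbol, guca1aa and rcvrnb.

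RNA was sequenced from whole eyeballs of fish aged 1 winter year, in 3 libraries titled C and 3 titled R, to set normal eyes against celestial eyes, which are turned upwards. The sample characteristics give C as normal and R as celestial, whereas the series text gives R as normal and C as celestial, so the letters are used as names and no phenotype is attached to either. The fish of the 2 letters came from separate farms, and farm and eye type cannot be told apart. No genotype, sex or treatment is given in the labels. Because the labels do not tie a library to a fish, p-values measure the spread between libraries, which may be technical.

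Photoreceptors keep cyclic nucleotide-gated channels open in the dark with cGMP, which membrane guanylate cyclases of the outer segment make from GTP. After light has lowered cGMP and calcium, the guanylate cyclase-activating proteins (GCAPs, encoded by guca1 genes) switch the cyclases on, which restores cGMP. RD3, first known from a mouse with retinal degeneration, binds the cyclases, keeps them inactive on the way through the cell and is needed for them to reach the outer segment. Recoverin is a calcium sensor of the same protein family as the GCAPs that restrains opsin kinases. Teleost fish carry extra copies of such genes from genome duplication, and the goldfish lineage duplicated its genome once more.

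Levels are FPKM, reads per kilobase of gene scaled to the reads counted in the library, and were deposited in that unit. Where a level has a ± value, it is the mean of a group with its SD (n = 3 libraries). The libraries held 9444623 to 11317200 reads in genes. Differences are log2 fold changes of C over R on log2(FPKM + 1), each with its standard error (SE), and a model was called at a limma Benjamini-Hochberg adjusted p below 0.05. Of 33907 models tested, 20.2% were called, 8.67% higher and 11.6% lower in C, and the groups did not overlap for 41.4%. With the median log2 ratio set to 0, the called models were 3726 higher and 3027 lower in C, against 2939 and 3925 in the values as deposited. The summed levels of some marker lists of other eye tissues parted by letter and others did not. Lens markers summed to 22166 to 40660 FPKM in C and 50205 to 53447 in R (22 of 40 tested lower and 3 higher in C). Red blood cell markers summed to 9160 to 23354 in C and 2547 to 5549 in R (4 of 8 tested higher). Rod markers overlapped, at 35687 to 46480 in C and 32607 to 38691 in R (22 tested, 5 higher and 4 lower). The sums also overlapped for pigment epithelium (1231 to 2390 in C and 1401 to 1561 in R), skeletal muscle (1261 to 4609 and 2194 to 2405) and inner retina and glia markers (1049 to 1403 and 1054 to 1288). Single models of these lists were called nonetheless. Of 21 tested pigment epithelium models 7 were higher and 2 lower, and of 34 inner retina and glia models 5 were higher and 11 lower. Of 32 tested skeletal muscle models, 2 were higher. Cone markers were 7477, 7460 and 11566 in C1 to C3 and 4300.4, 4128 and 5099 in R1 to R3, with no overlap (19 tested, 7 higher and 1 lower). No marker gene found for these lists was at 0, and 7 of the 14 cone symbols, all opsins among them, had no model under the searched name. In whole eyes, fewer cells of a type and less RNA per cell cannot be told apart, and the part these tissues had in the results below was not tested.

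All but 2 of the 27 models passed the filter of 1 FPKM in 3 libraries, and 11 of the 25 tested were called, 8 higher and 3 lower in C. That is 44.0%, beside 20.2% of all models tested. The rod and cone marker lists stood near it, at 40.9% and 42.1%, and the pathway lists given below stood at 28.3%. The pathway lists share models with the cone marker list, so these shares are not separate. The groups did not overlap for 15 of the 25, beside 41.4% of all models. The median log2 fold change of the 25 was 0.20, and that of all models tested was -0.09. By role, none of the 7 cyclase models was called, 7 of 11 guca1a models were (4 higher, 3 lower), and so were 2 of 3 tested guca1b and 2 of 4 rd3 models, all higher in C.

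**Figure D1:**
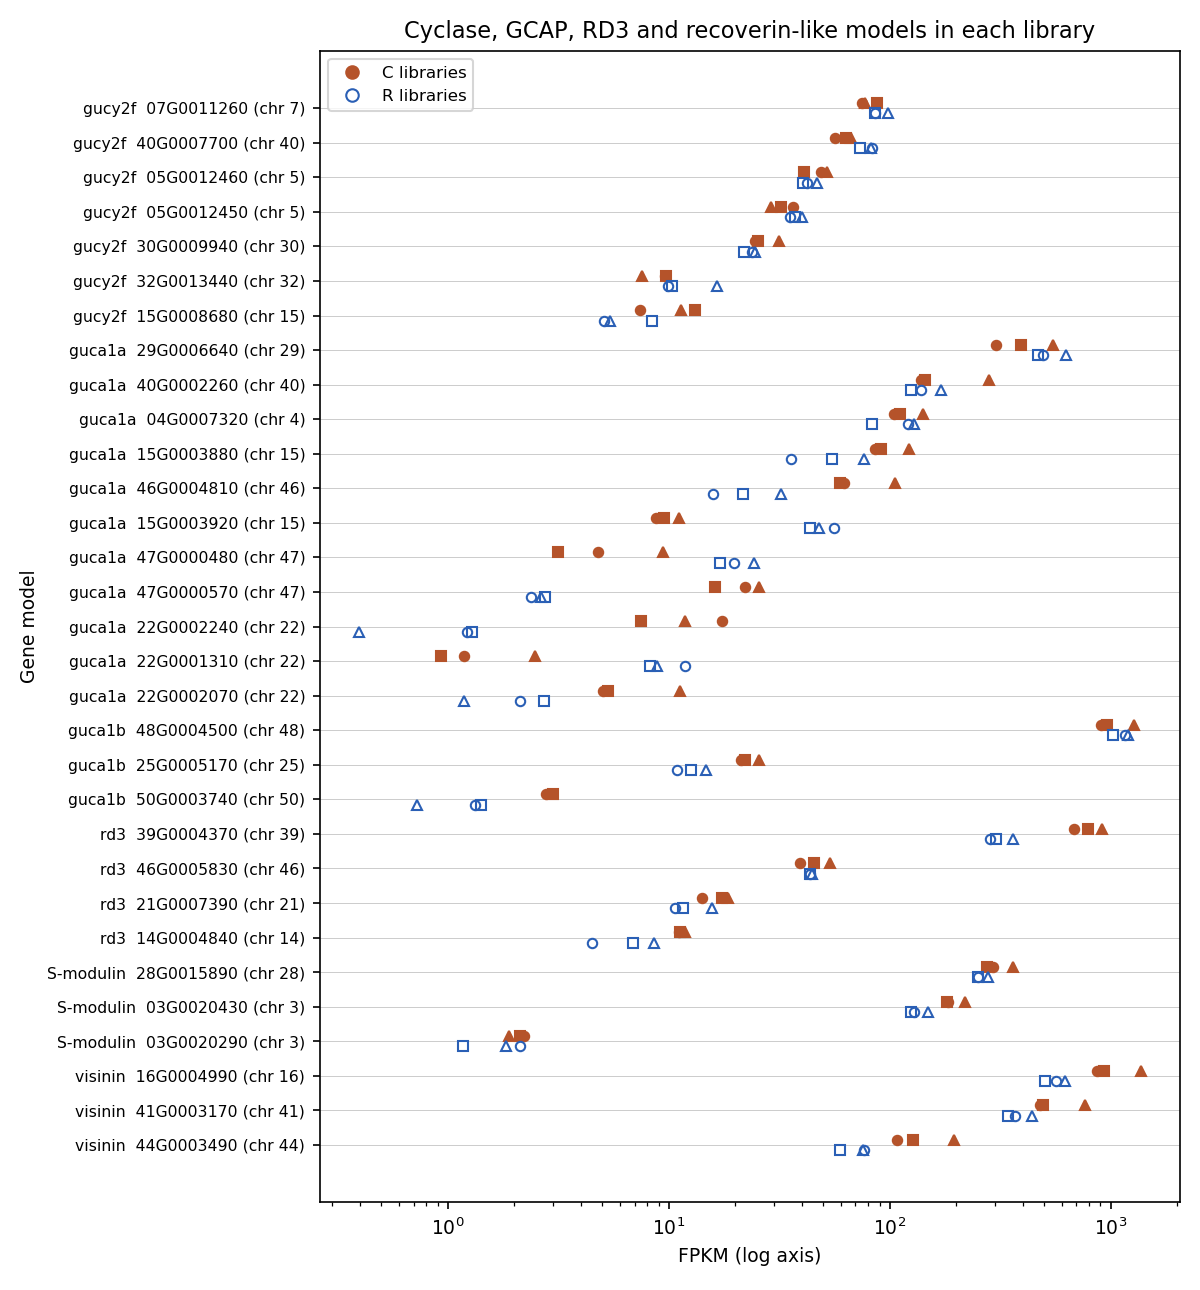
Level of each tested model in each library (FPKM, log axis), with the Swiss-Prot name, the end of the model identifier and the chromosome at the left. Filled symbols are C libraries and open symbols R libraries (circle, square and triangle for replicates 1, 2 and 3). None of the 7 cyclase models is called. The groups do not overlap for 3 of these 7, near the 41.4% of all models tested. The guca1a models of chromosomes 15, 22 and 47 part by letter in opposite directions.

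The cyclases make cGMP, and none of their models was called. The most abundant gucy2f model, Cau.07G0011260 on chromosome 7 (28521713 to 28530310, plus strand), had 75.3, 87.3 and 77.0 FPKM in C and 86.1, 86.2 and 98.03 in R. These ranges overlap, and the difference was -0.17 (SE 0.12, limma adjusted p = 0.348). Next in level was Cau.40G0007700 on chromosome 40, at 56.6, 63.6 and 66.7 FPKM in C and 83.3, 73.0 and 82.5 in R. Every C library lay below every R library, by -0.35 (SE 0.12), without passing the test (limma adjusted p = 0.0809). It was called lower in C only when the libraries were quantile normalised (limma adjusted p = 0.0158).

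A pair of gucy2f models on chromosome 5 lay 50 bases apart on the same strand and had the same best protein match, so they may be pieces of 1 gene. The longer piece, Cau.05G0012460, had 47.3 ± 5.67 FPKM in C and 43.2 ± 3.27 in R. The shorter, Cau.05G0012450, had 32.6 ± 3.69 and 37.6 ± 2.19. Their differences were of opposite sign and neither was called (0.12 and -0.21). The 3 remaining models were lower in level. Cau.30G0009940 on chromosome 30 had 24.6, 25.4 and 31.6 FPKM in C and 23.9, 21.99 and 24.5 in R, a difference of 0.20 (SE 0.13) that was not called although the groups did not overlap. Cau.32G0013440 on chromosome 32 ran from 7.59 to 9.71 FPKM in C and from 9.90 to 16.5 in R, which do not overlap either, and was not called (-0.38). Cau.15G0008680 on chromosome 15 had the highest fold of the 7, with 7.44, 13.1 and 11.4 FPKM in C and 5.08, 8.42 and 5.41 in R. That difference of 0.67 (SE 0.24) did not pass the test (limma adjusted p = 0.0894), but passed without C1 (limma adjusted p = 0.0493). Summed over the 7 models, gucy2f had 259, 273 and 275 FPKM in C and 286, 278 and 314 in R. The sum lay lower in every C library, by -0.12 (SE 0.10, 95% interval -0.35 to 0.11), and was not called (limma adjusted p = 0.426, fitted over 12592 summed names, of which 19.2% were called). It adds the FPKM of both chromosome 5 pieces, so if they are 1 gene, that gene is counted more than once. The highest C sum (275) and the lowest R sum (278) lie closer than the level of the shorter piece (29.0 to 39.9 FPKM). Without the shorter piece (29.0 FPKM in C3 and 37.5 in R2), the C3 sum would lie above the R2 sum. The separation of the groups thus depends on how the pieces are counted.

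The guca1a name, that of GCAP1, held the largest differences among the models, and these ran both ways. Chromosomes 15, 22 and 47 each carried a copy whose C libraries lay above all R libraries and another whose C libraries lay below them. On chromosome 15, Cau.15G0003880 (10828764 to 10838152) and Cau.15G0003920 (10860106 to 10869744), both on the plus strand, lay 21.95 kb apart with 3 models between them. The first had 85.7, 91.6 and 123 FPKM in C and 35.9, 55.0 and 76.3 in R. The groups did not overlap, but the difference of 0.88 (SE 0.27) was not called (limma adjusted p = 0.0555). It was called without R3 (limma adjusted p = 0.0265), with the median log2 ratio set to 0 (0.0413), with a replicate block (0.0148) and with limma-voom on the recovered reads (0.0422). The second had 8.75, 9.56 and 11.1 FPKM in C and 55.8, 43.4 and 48.1 in R. The mean was 5.01 times higher in R, with a log2 difference of -2.21 (SE 0.14, limma adjusted p = 9.33e-05) and a wide space between the groups. The first copy thus made up 90.6 to 91.7% of the guca1a level of this chromosome in C and 39.2 to 61.3% in R, while the sum of both overlapped between the groups (110 ± 21.1 and 105 ± 17.3 FPKM).

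The copies on chromosome 15 are each followed on the minus strand by a model named ndufc2, a subunit of mitochondrial complex I. The model after the first copy, Cau.15G0003890, had 19.3, 18.6 and 25.1 FPKM in C and 1.36, 9.33 and 9.20 in R. The difference was 1.80 (SE 0.53, limma adjusted p = 0.0484). That call lies close to the threshold, with R1 far below R2 and R3. Whether it holds under the alternatives was not read out. The model after the second, Cau.15G0003930, was at 0 in all C libraries and at 2.12, 0.559 and 0.516 in R, too low to be tested. The C libraries of the first ndufc2 model lay above its R libraries, as for the guca1a copy beside it, and the few reads of the second were all in R. These neighbours were not among the planned genes, and the other models between the guca1a copies were not read out.

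Chromosome 22 had 3 guca1a models. Cau.22G0001310 (4198555 to 4203643, minus strand) had 1.19, 0.930 and 2.48 FPKM in C and 11.9, 8.19 and 8.87 in R, a difference of -2.10 (SE 0.25, limma adjusted p = 0.00160). The other two, 827 kb and a further 342 kb along the chromosome, were high in C instead. Cau.22G0002240 (5375030 to 5377652, plus strand) had 17.4, 7.47 and 11.8 FPKM in C and 1.22, 1.29 and 0.396 in R, a difference of 2.71 (SE 0.31, limma adjusted p = 0.00144). Cau.22G0002070 (5030650 to 5033460, minus strand) had 5.06, 5.33 and 11.3 FPKM in C and 2.13, 2.72 and 1.19 in R, a difference of 1.40 (SE 0.32, limma adjusted p = 0.0195). None of the 3 overlapped between the groups. Cau.22G0002070 and Cau.22G0002240 have the same best protein match and the same length, so reads may be divided between them in a way that cannot be seen here. Each also overlaps an unnamed model on the opposite strand, and reads may not be separated from it, since whether counting used strand is not given. Without R1 or without R3, Cau.22G0002070 was not called (limma adjusted p = 0.0546 and 0.0631).

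On chromosome 47 the pattern recurred with larger levels. Cau.47G0000480 (898914 to 902946, plus strand) had 4.77, 3.16 and 9.45 FPKM in C and 19.8, 17.1 and 24.2 in R, a difference of -1.75 (SE 0.31, limma adjusted p = 0.00826). Cau.47G0000570 (1271602 to 1274750, plus strand), 369 kb away with 7 models between, had 22.2, 16.2 and 25.7 FPKM in C and 2.37, 2.76 and 2.63 in R. Its mean was 8.26 times higher in C, a difference of 2.62 (SE 0.18, limma adjusted p = 0.000146). The share of the first copy in the guca1a level of the chromosome was 20.3 ± 5.75% in C and 88.5 ± 2.14% in R. On chromosome 22 the corresponding share of Cau.22G0001310 was 7.17 ± 2.37% and 76.7 ± 8.91%. Summed over the chromosome, the level was 27.2 ± 7.87 FPKM in C and 23.0 ± 3.56 in R for chromosome 47, and 21.0 ± 6.35 and 12.6 ± 2.40 for chromosome 22. The 7 models of chromosomes 15, 22 and 47 together came to 158 ± 32.2 FPKM in C and 140.4 ± 18.4 in R. The shares are a description, with no test, since the copies were picked out by their differences. The genome assembly behind the coordinates is not given in the sources used here, and a difference in sequence between the fish of the 2 farms and the reference copies, which would move reads between models, was not tested.

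**Figure D2:**
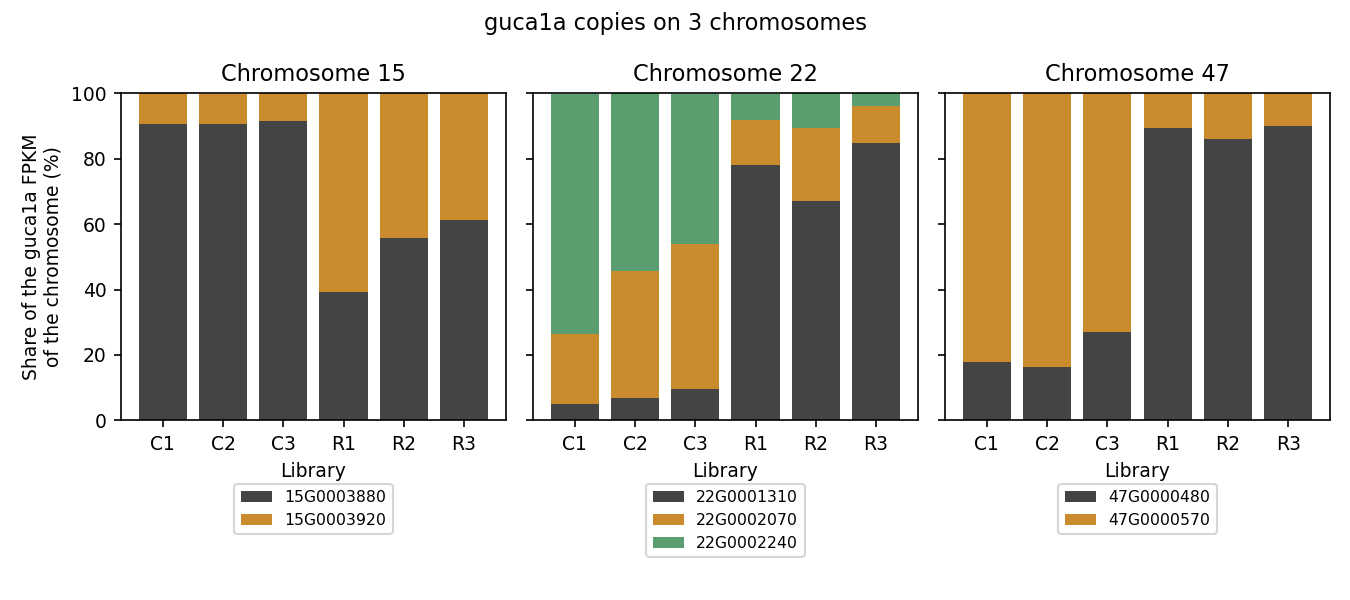
Share of each guca1a model in the summed guca1a FPKM of its chromosome (%, stacked bars to 100), per library, for chromosomes 15, 22 and 47. The lowest, dark part of the bars is 90.6 to 91.7% in C and 39.2 to 61.3% in R on chromosome 15, and is small in C and large in R on chromosomes 22 and 47.

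The guca1a model of chromosome 46, Cau.46G0004810 (11794715 to 11799369, minus strand), is described in the table as GCAP3-like, GCAP3 being a cone GCAP in zebrafish. It had 62.2, 59.7 and 106 FPKM in C and 15.9, 21.8 and 32.3 in R, 3.25 times higher in C on average. All C libraries lay above all R libraries, and the difference was 1.67 (SE 0.30, limma adjusted p = 0.00782). This model overlaps a model named alg8, and whether counting used strand is not given, so the reads of the 2 genes may not be separated. The cone marker sum was also higher in each C library than in each R library, and its part in this difference was not tested.

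The remaining 3 guca1a models were the most abundant and were not called. The guca1aa model, Cau.29G0006640 on chromosome 29, had 304, 393 and 546 FPKM in C and 497, 469 and 629 in R (-0.39, SE 0.23, limma adjusted p = 0.262). Cau.40G0002260 on chromosome 40 had 138, 144 and 281 FPKM in C and 139, 125 and 171 in R (0.31, limma adjusted p = 0.464), and Cau.04G0007320 on chromosome 4 had 119 ± 20.1 and 111 ± 24.5. In all 3 the ranges of C and R overlapped and C3 was the highest C library. Without C3 the difference of Cau.40G0002260 was -0.023. These 3 models held most of the guca1a level, and their C and R ranges overlapped, as did those of the guca1a sum. It was 754, 842 and 1270 FPKM in C and 901, 829 and 1123 in R, a difference of -0.02 (SE 0.21, 95% interval -0.50 to 0.46, limma adjusted p = 0.958).

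GCAP2 is encoded by guca1b, and 1 of its 4 models held nearly all of its level. Cau.48G0004500 on chromosome 48, the most abundant of the 27 models, had 901, 963 and 1270 FPKM in C and 1165, 1025 and 1204 in R. The groups overlapped and the difference was -0.13 (limma adjusted p = 0.624). The 2 minor models were higher in C. Cau.25G0005170 on chromosome 25 had 21.1, 22.2 and 25.7 FPKM in C and 10.9, 12.6 and 14.8 in R, a difference of 0.81 (SE 0.14, limma adjusted p = 0.00794). Cau.50G0003740 on chromosome 50 had 2.77, 3.00 and 2.97 FPKM in C and 1.33, 1.41 and 0.722 in R, a difference of 0.88 (SE 0.19, limma adjusted p = 0.0170) that was lost without C1 (limma adjusted p = 0.0505). Both had C libraries above all R libraries. The last, Cau.25G0005130, 48.0 kb from the other chromosome 25 copy, had no read in any library, which allows up to 0.177 FPKM in C and 0.169 in R (3 reads per group, counting error only). The guca1b sum was 1070 ± 200 FPKM in C and 1145 ± 94.3 in R, a difference of -0.11 (SE 0.15, 95% interval -0.46 to 0.24) that was not called.

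**Figure D3:**
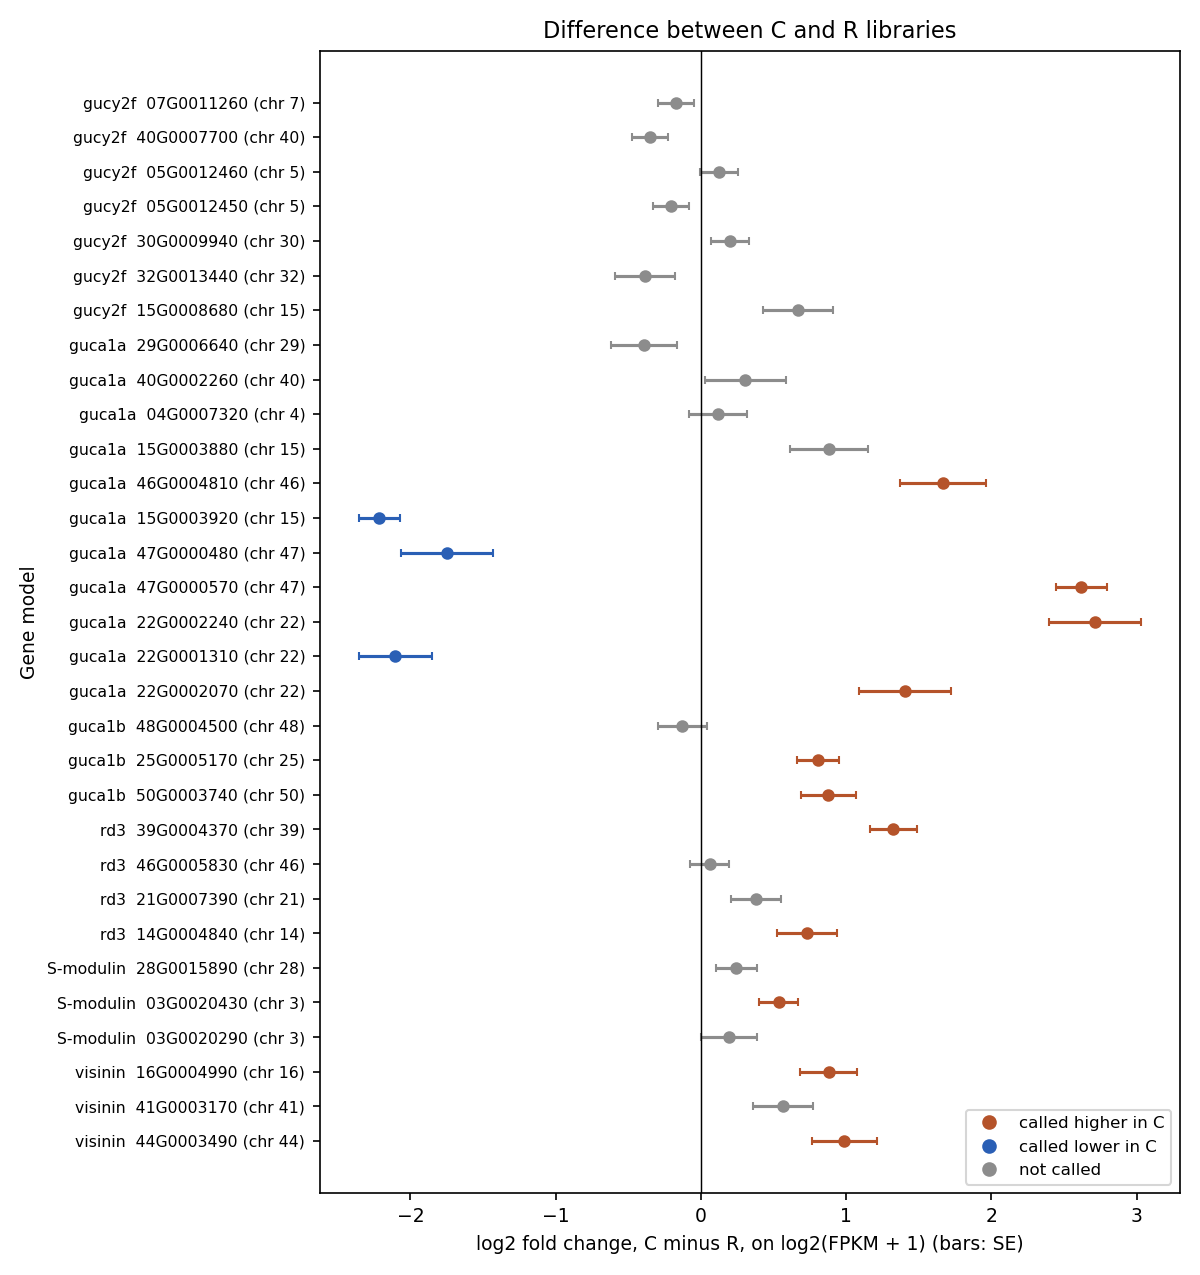
Log2 fold change of C over R on log2(FPKM + 1) for each tested model, with its SE as bars. Orange is called higher in C, blue called lower in C and grey not called. The 3 models called lower in C are all guca1a, on chromosomes 15, 22 and 47, and none of the 7 cyclase models is called.

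RD3 was the only one of the 4 tested names whose summed level was called. The sum over its 4 models was 745, 867 and 996 FPKM in C and 343, 364 and 432 in R, 2.29 times higher in C. The groups were far apart (1.19, SE 0.14, limma adjusted p = 0.00192), where 7.93% of summed names were called higher. Nearly all of this came from Cau.39G0004370 on chromosome 39 (12535906 to 12537385, plus strand), with 681, 793 and 912 FPKM in C and 285, 302 and 363 in R. Its mean was 2.51 times higher in C, a difference of 1.32 (SE 0.16, limma adjusted p = 0.00173).

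The 3 minor rd3 models differed less. Cau.14G0004840 on chromosome 14 had 11.2, 11.2 and 11.8 FPKM in C and 4.48, 6.92 and 8.61 in R, a difference of 0.73 (SE 0.20, limma adjusted p = 0.0410). Its groups did not overlap, but the call was lost without any 1 of C1, C2, C3, R1 or R2 (limma adjusted p 0.0733 to 0.0994). It was also lost with no low-value filter (limma adjusted p = 0.0594) and with limma-voom on the recovered reads (0.0525). Cau.46G0005830 on chromosome 46 had 39.4, 45.4 and 53.6 FPKM in C and 43.6, 43.5 and 44.3 in R, with all R libraries inside the range of C (0.06, limma adjusted p = 0.777). Cau.21G0007390 on chromosome 21, which overlaps adss2 on the opposite strand, had 16.7 ± 2.31 and 12.7 ± 2.70 FPKM and was not called (0.38).

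Set against the cyclases that it binds, rd3 was at 2.88, 3.18 and 3.62 times the summed gucy2f level in C and at 1.20, 1.31 and 1.38 times in R. The summed GCAPs stood at 6.49 to 9.33 times gucy2f in C and 6.72 to 7.46 times in R, which overlap. As a share of the rod marker sum, rd3 was 2.09 to 2.21% in C and 0.938 to 1.12% in R. As a share of the cone marker sum it was 9.97, 11.6 and 8.61% in C and 7.98, 8.82 and 8.47% in R, which overlap. Per rod marker level rd3 thus parted by letter. Per cone marker level it did not, but this overlap rests on C3 alone, with C1 and C2 above all R libraries. The part of the cone markers in the rd3 difference was not tested. Relative to rod markers, gucy2f was lower in all C libraries (0.592 to 0.725%) than in R (0.781 to 0.853%), and so was guca1b (2.52 to 2.79% and 3.15 to 3.21%), while guca1a overlapped (2.11 to 2.73% and 2.46 to 2.90%). Relative to cone markers, gucy2f was 2.38 to 3.65% in C and 6.15 to 6.74% in R, without overlap. The gucy2f sums used here include both chromosome 5 pieces, which may be 1 gene. These ratios are descriptions with no test.

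**Figure D4:**
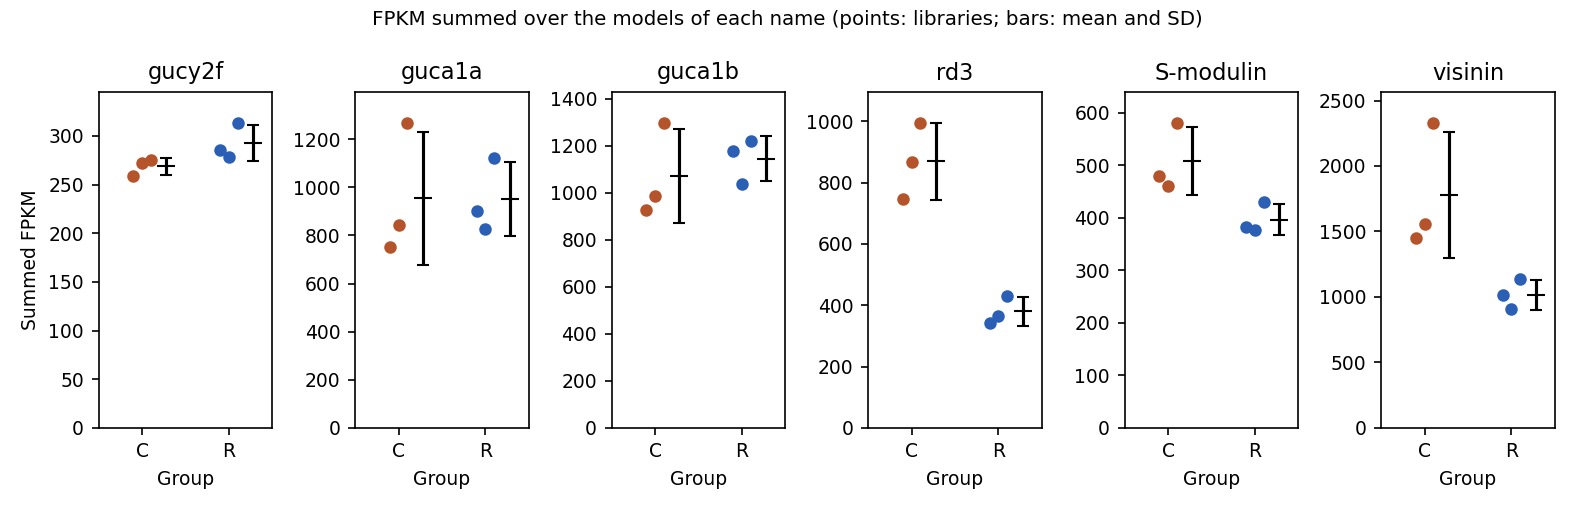
FPKM summed over the models of each name, from 0, with points for the 3 libraries of each group and black bars for the mean and SD. The rd3 sums of C (745 to 996) lie well above those of R (343 to 432), and the gucy2f, guca1a and guca1b means differ by less.

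Recoverin itself was almost unread under its own name. The rcvrn model, Cau.12G0001060 (RefSeq symbol rcvrnb), had 2, 0 and 2 reads in C and 2, 0 and 0 in R, and was not tested. Recoverin-family levels were held instead by 6 models whose best matches are S-modulin, the frog recoverin, or visinin, a chicken cone protein of the recoverin family. These entries have no gene name, and the models were added after their values had been seen. The highest level among these 6 was that of visinin Cau.16G0004990 on chromosome 16, at 864, 930 and 1368 FPKM in C and 566, 503 and 619 in R (0.88, SE 0.20, limma adjusted p = 0.0195). Cau.44G0003490 on chromosome 44 had 108, 128 and 196 FPKM in C and 76.2, 59.6 and 75.4 in R (0.99, SE 0.22, limma adjusted p = 0.0206). Cau.41G0003170 on chromosome 41 had 479, 495 and 768 FPKM in C and 370.2, 343 and 440.4 in R, without a call (0.57, SE 0.21, limma adjusted p = 0.0938). The C libraries lay above all R libraries in each of the 3. Without R1 or without R2 neither of the 2 called models passed (limma adjusted p up to 0.0838 for Cau.16G0004990 and 0.0821 for Cau.44G0003490).

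Among S-modulin models, Cau.03G0020430 on chromosome 3 had 184, 182 and 219 FPKM in C and 129, 124 and 150 in R. This difference of 0.54 (SE 0.14) was called (limma adjusted p = 0.0292), but not without C1, C3, R1 or R2 (highest limma adjusted p = 0.115) or after quantile normalisation. The more abundant Cau.28G0015890 on chromosome 28 stood at 310 ± 44.5 FPKM against 260.4 ± 15.7 in R, with overlapping ranges, and was not called (0.24, limma adjusted p = 0.257). A near-silent S-modulin model on chromosome 3, Cau.03G0020290, had 2.07 ± 0.163 and 1.71 ± 0.487. As a share of the cone marker sum, visinin was 19.4 to 20.8% in C and 21.9 to 23.5% in R, lower in C without overlap, whereas both visinin and the cone marker sum were higher in every C library. The part of the cone markers in the visinin difference was not tested. As a share of rod markers, S-modulin was 1.18 to 1.35% in C and 1.04 to 1.16% in R.

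Most of the copies fell on chromosome pairs whose numbers differ by 25, among the 50 numbered chromosomes. Of the names with a single model on each of 2 chromosomes, 87.4% (3467 of 3967) were spaced in this way. There were 9 such pairs for the names above and 2 among the recoverin-like models. No partner of the same name was found for guca1b Cau.48G0004500, guca1a Cau.46G0004810, the rcvrn model or visinin Cau.44G0003490. Partners were often unequal in level. The rd3 copy on chromosome 39 was 61.0 to 77.0 times the one on chromosome 14 in C and 42.1 to 63.5 times in R, and the gucy2f copy on chromosome 40 was 4.85 to 7.61 times that on chromosome 15 in C and 8.67 to 16.4 times in R. For guca1a, chromosome 29 was 2.91 to 3.84 times chromosome 4 in C and 4.12 to 5.67 times in R. The guca1a copies that parted by letter in opposite directions lay on the paired chromosomes 22 and 47 and on chromosome 15. The partner of the last, chromosome 40, held a single copy with overlapping groups. Cau.46G0004810, without a partner, also parted by letter and was higher in C. All 5 models of chromosomes 22 and 47 were placed in a single eggNOG orthologous group by the deposited annotation. The groups of the other guca1a models are not given here, so this does not set these 5 apart from them.

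The wider pathway was read from 6 lists of other genes, in which 120 of 162 models were tested and 34 were called, 19 higher and 15 lower in C (28.3%, beside 20.2% of all models; median log2 fold change 0.02, beside -0.09). Among other guanylate cyclases, 1 of 16 tested models was called. It was gucy2c (Cau.03G0002690), the guanylin receptor, at 0, 0.0342 and 0 FPKM in C and 3.41, 1.603 and 2.72 in R (limma adjusted p = 0.00195). This model passed the filter of 1 FPKM in 3 libraries only through R, the group where it was high. Its call is thus no independent support for a difference. The natriuretic peptide receptor npr1 (Cau.16G0008960) was not called, at 2.48 ± 0.666 and 1.20 ± 0.325 FPKM.

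Of 37 tested neuronal calcium sensors related to the GCAPs, 3 were called higher and 6 lower. A pair of hpcal1 models, which encode hippocalcin-like protein 1, was lower in C by similar amounts. Cau.44G0007800 had 12.8 ± 1.86 and 26.7 ± 2.04 FPKM in C and R (-1.01, SE 0.14, limma adjusted p = 0.00244), and Cau.19G0008450 had 44.7 ± 6.05 and 92.0 ± 10.3 (-1.03, SE 0.15, limma adjusted p = 0.00306). Their chromosomes are again 25 apart.

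Among the genes that act on cGMP after its synthesis, 5 of 23 phosphodiesterase, channel and exchanger models were higher and 3 lower in C. The smallest p-values belonged to a cone phosphodiesterase subunit, pde6h (Cau.06G0000320, 961 ± 234 and 83.7 ± 8.99 FPKM), and the cone channel subunit cngb3 (Cau.24G0005380, 42.9 ± 5.34 and 9.07 ± 1.35). Of the 8 opsin kinase models that recoverins could restrain, 2 were higher and 1 lower. Both higher ones were grk7a, the cone opsin kinase, with Cau.02G0004720 at 61.4, 59.9 and 86.8 FPKM in C and 25.6, 28.1 and 39.6 in R (1.14, SE 0.21, limma adjusted p = 0.00870). The other, Cau.02G0004850, had 26.3 ± 7.14 and 13.5 ± 2.25 (0.89, SE 0.21, limma adjusted p = 0.0216). Both of these grk7a models have the same best RefSeq protein match, described as rhodopsin kinase 1. Reads may thus be divided between them in a way that cannot be seen here. The pde6h, cngb3 and grk7a models named here also count among the cone markers given above. Summed over the 8 opsin kinase models, the level was 523 ± 85.3 FPKM in C and 523 ± 68.6 in R. The lowest difference of the opsin kinase list, -0.80, was also the lowest of the cone marker list, so a cone kinase model lay lower in C.

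Carriers and chaperones of photoreceptor membrane proteins had 9 higher and 3 lower of 27. Among them unc119 (Cau.40G0007240), a carrier of lipid-modified transducin, had 46.2, 47.9 and 70.6 FPKM in C and 15.7, 14.2 and 19.4 in R (1.66, SE 0.19, limma adjusted p = 0.00140). On chromosome 45 the rd3l copies, relatives of rd3, parted by letter in opposite directions. Cau.45G0003800 had 0, 0 and 0.0774 FPKM in C and 1.997, 1.960 and 2.04 in R (limma adjusted p = 0.000939). This copy was low in level and passed the filter only through R, where it was high, so its call is no independent support for a difference. Cau.45G0003860 had 15.7, 15.3 and 18.1 FPKM in C and 8.64, 8.200 and 9.57 in R (0.82, SE 0.12, limma adjusted p = 0.00380). On chromosome 20, Cau.20G0005310, the most abundant rd3l copy, had 31.0 ± 2.49 FPKM in C and 26.6 ± 1.41 in R and was not called (limma adjusted p = 0.231), and Cau.20G0005210 was too low to be tested. All rd3l copies but Cau.45G0003800 were added after their values were seen. For the supply of guanine nucleotides, 1 of 9 tested models was called. This was impdh1a (Cau.43G0002050), a rate-limiting enzyme of GMP synthesis, at 21.6, 21.96 and 26.8 FPKM in C and 46.3, 44.0 and 55.4 in R (-1.02, SE 0.14, limma adjusted p = 0.00276), while impdh2 (Cau.33G0007180) was not called (0.33).

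Summed over all 27 models, the level was 2684, 2969 and 3840 FPKM in C and 2707, 2510 and 3088 in R, with overlap. The models outside the set whose log2(FPKM + 1) followed this sum most closely over the 6 libraries, among 14762 searched, were serinc1 (Pearson r = 0.987), med7 (0.986), serpina10 (0.980), tmx2b (0.979) and slc3a2 (0.978). All points share the same 6 libraries, and 34 models had an r over 0.95. With 6 libraries and 14762 models searched, values this high can arise without any link to the set. Whether these models follow the set beyond that was not tested.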

How the data were processed

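Illumina TruSeq libraries were made from 3 ug of Trizol-extracted total RNA, per the labels' protocols. The authors deposited FPKM per gene model. Per the submitters' processing notes, the tools included DESeq 1.10.1, TopHat2 2.0.9 and Bowtie 0.12.5, with no roles stated, and a pig build that does not match the goldfish models. The sources used here give neither the assembly, nor the counter, nor whether strand was used. FPKM times length gave whole reads for 100% of values (tolerance 0.01), so depth was recovered: 9444623, 9806435 and 11017539 reads for C1 to C3, and 9829134, 10450126 and 11317200 for R1 to R3. RefSeq names (ASM336829v1) were used for names only.

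Models with at least 1 FPKM in at least 3 libraries were tested with the moderated linear model of limma 3.58.1 (R 4.3.3; robust eBayes with a mean trend) on log2(FPKM + 1), which shrinks folds of low genes. Names were fitted again as sums. On simulated C against R data (33776 genes) the test recovered 52 of 100 models planted at 2-fold and 100 of 100 at 4-fold. It also called 22 unchanged models. The simulation gave all models the same dispersion and changed only the planted ones, so these rates need not hold for the real libraries. Every member is reported. From each pathway list the 2 smallest p-values are named, and the 5 closest correlations are named for likeness. Members and lists were chosen with earlier results of these data known. Alternatives were other scalings, pseudocounts, filters, left-out libraries, a replicate block and limma-voom on the recovered reads. Floors are 3 reads per group.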

Additional observations from a re-analysis of the deposited data

How the results depend on the processing

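Of the 11 called models, 8 were called under every alternative that tested them, and none of the 11 changed direction. Over 323 alternative values of single models, 298 kept their direction and side of the threshold, 10 lost a call, 7 gained one and 8 changed sign. The sign changes were all of differences that were not called: under quantile normalisation Cau.04G0007320 gave -0.091, Cau.05G0012460 -0.052, Cau.46G0005830 -0.11 and Cau.48G0004500 0.041. With 1 library left out, Cau.04G0007320 ran from -0.076 to 0.24, Cau.40G0002260 from -0.023 to 0.49 and Cau.46G0005830 from -0.050 to 0.17. The summed guca1a difference was 0.044 with the median log2 ratio set to 0, 0.020 with limma-voom (an alternative chosen after seeing the data), and -0.24 to 0.13 with 1 library left out. The cause was not tested. With a mean of at least 5 FPKM required, 1959 models were called higher and 1711 lower in C over the whole table, and 9 of the pathway lists lower, since fewer models are tested. Leaving out each library gave 1628 to 3163 models higher, 1929 to 4056 lower and 9 to 18 of the pathway lists lower. The first count moved by over 1.5 times without C1, R1 or R2 (lowest without R2), the second without C1, R1, R2 or R3 (lowest without R2) and the pathway count without R1. Adding the S-modulin and visinin models to rcvrn raised the names called higher from 1 to 2 (0.67 for the joined sum, limma adjusted p = 0.0324). With a replicate block, 10 members were higher and 3 lower in C, and Cau.15G0003880 was called (limma adjusted p = 0.0148), as it was with the median ratio set to 0, with limma-voom and without R3. The block also brought calls for Cau.15G0008680 and Cau.41G0003170 (limma adjusted p = 0.0355 and 0.0439). Deviations of same-numbered libraries correlated at -0.0052, 0.0989 and 0.0394, and those of differently numbered libraries at -0.112 to 0.0673. With so few libraries this cannot settle whether the numbers pair the samples. The 2 planned count-model tests were not run, because the files hold FPKM. Depth limits the rcvrn model and the silent guca1b copy, which cannot be compared. Some called models also rest on few reads. Cau.50G0003740 had 16, 18 and 20 reads in C and 8, 9 and 5 in R, and Cau.22G0002240 had 8, 9 and 3 in R.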
